A study of Mus musculus with 9 samples.

Results

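The cytosolic ribosomal protein genes and their paralogs were followed through 3 stages of male germ cell development in the mouse. Members were the protein-coding genes whose symbol opens with Rpl or Rps and a number, with Rplp0, Rplp1, Rplp2 and Rpsa and without the Rps6k kinases, of which 10 were left out. This gave 91 of the 50493 features in the count table. They comprised 77 canonical genes (46 of the large and 31 of the small subunit), 7 paralogs (Rpl10l, Rpl39l, Rpl3l, Rpl22l1, Rpl7l1, Rpl36al and Rps27l) and 6 annotated retrocopies (Rpl31-ps12, Rpl32l, Rpl34-ps1, Rpl37rt, Rps23rg1 and Rps27rt). Rps19bp1, which met the symbol rule, encodes a protein named for binding Rps19 that is not part of the ribosome. RNA came from testis of wild-type mice, with no treatment, as pachytene spermatocytes (PAC, cells in meiotic prophase), round spermatids (RS, haploid and still spherical) and elongating spermatids (ES, in which the nucleus condenses). Each cell type had 3 libraries of rRNA-depleted, stranded total RNA, called biological replicates in the submitters' design text. No source used here states the strain, the age, how cells were isolated or which animals gave a library, so p-values measure the spread between these libraries, which may be technical in part.

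The cytosolic ribosome joins one copy of most of these proteins with ribosomal RNA, and growing cells make their mRNAs in a coordinated way. Male germ cells silence the X chromosome during meiosis, and several X-linked ribosomal protein genes have autosomal paralogs, of which Rpl10l and Rpl39l are known for their expression in testis. Rpl10 lies near the peptidyl transferase centre and joins the large subunit late in assembly, whereas Rpl39 is a very small protein at the exit tunnel of the nascent chain.

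The coding sequences of Rpl39l and Rpl39 show how closely a testis paralog can match its somatic form. Both span 156 bases with the stop codon and differ at 23, printed in capitals below (85.3% identity; GENCODE M21, build GRCm38). Rpl39l lies on the plus strand at chr16:10174310-10174465, and Rpl39 on the minus strand at chrX:37082701-37085127, where introns interrupt it.
Rpl39l: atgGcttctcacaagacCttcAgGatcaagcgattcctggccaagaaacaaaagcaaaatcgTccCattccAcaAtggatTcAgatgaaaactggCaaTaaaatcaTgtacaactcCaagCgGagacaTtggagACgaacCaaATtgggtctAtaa
Rpl39: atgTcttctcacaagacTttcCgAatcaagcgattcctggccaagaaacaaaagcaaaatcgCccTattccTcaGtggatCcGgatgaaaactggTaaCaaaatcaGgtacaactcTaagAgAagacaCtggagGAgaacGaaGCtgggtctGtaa
The longest stretch without a difference was 38 bases. Rpl10l and Rpl10 differed at 98 of 645 coding bases (84.8% identity, longest shared stretch 23 bases), Rpl36al and Rpl36a at 39 of 321 (87.9%), and Rpl22l1 and Rpl22 were 66.9% identical.

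Coding sequences of most canonical genes also recur, over long stretches, in annotated transcripts of other genes, whose type was not checked. Of the 77 canonical genes, 66 shared at least 50% of their coding 50-base windows with an annotated transcript of another gene, with a median of 90.3%. Rpl10 and Rpl36a shared 100% of theirs, Rps4x 90.0% and Rpl39 84.1%. Rpl10l shared 12.4%, and Rpl39l shared none of its 107 windows. Rpl36al shared 100%, Rpl22l1 81.9% and Rpl22 30.8%. No source used here states how reads matching several places were counted, so the level of a gene with shared windows is uncertain, and so is the size of a ratio between a paralog and its somatic form. Across the 77 canonical genes the shared percentage had a Spearman rho of 0.0118 with mean FPKM (a level corrected for gene length and library size) and of -0.102 with the log2 fold change of RS against PAC, given as descriptions of genes that share the same libraries.

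Total counts ran from 22910156 to 33801617 per library, and 88 of the 91 members had enough counts to be tested. ES replicate 1 stood apart, with the lowest scaling factor (TMM, 0.758 against 0.923 to 1.099 in the other 8 libraries). The stage markers were then set against the labels. The summed level of 10 elongating spermatid markers was 2330 to 3230 CPM (counts scaled to a common library size) in PAC, 16600 to 18900 in RS and 47700 to 78300 in ES. Of 10 round spermatid markers, 9 rose from PAC to RS and 9 fell from RS to ES, among them Acrv1 (496 ± 49.3 to 218 ± 6.31 CPM, SD, n = 3). Tssk6 rose from RS to ES (626 ± 47.5 to 2700 ± 376 CPM). The summed level of these 10 markers was 1250 to 1380 CPM in PAC, 3080 to 3330 in RS and 3480 to 4200 in ES, so it was not highest in RS. The 10 pachytene spermatocyte markers set the stages apart less. Their summed level was 3610 to 3690 CPM in PAC, 2470 to 2650 in RS and 2110 to 2500 in ES, with RS and ES overlapping. From PAC to RS 7 of them fell, and from RS to ES 3 rose and 3 fell. Markers of somatic cells were present in all 3 cell types and are given beside the X-linked genes.

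Together the members held 2.08% ± 0.432 (SD, n = 3) of all PAC counts, 1.78% ± 0.0656 of RS counts and 1.58% ± 0.208 of ES counts, and the ranges of the 3 cell types overlapped (1.63% to 2.49%, 1.72% to 1.85% and 1.34% to 1.73%). They were among the abundant mRNAs at every stage. The median canonical gene stood at 263 ± 49.0 FPKM in PAC, 222 ± 4.73 in RS and 186 ± 23.6 in ES, which was between the 97.1st and 98.8th percentile of protein-coding genes in all 9 libraries. FPKM above 100 was reached by 64 of the 77 genes in PAC, 60 of 77 in RS and 54 of 77 in ES. The order of the genes was alike between stages, with a Spearman rho over the 77 genes of 0.94 between PAC and RS, 0.925 between PAC and ES and 0.972 between RS and ES. In these bulk samples fewer cells of a type and less RNA per cell cannot be told apart.

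By CPM, Rps7, Rplp0 and Rps24 led in PAC, Rps7, Rplp0 and Rpl26 in RS, and Rpl41, Rplp0 and Rps7 in ES. On the FPKM scale, which corrects for length, Rps7 (1400 ± 354 FPKM, SD, n = 3) and Rpl26 (1335 ± 279) were highest in PAC, and their spreads overlapped. Rpl41, the smallest ribosomal protein gene, was highest in RS (1748 ± 187 FPKM, next to 1618 ± 87.1 for Rpl26) and in ES (3586 ± 973 FPKM, next to 1381 ± 254 for Rpl26). At the other end, Rps16 was the lowest canonical gene in every PAC and ES library, at a mean of 1.39 FPKM in PAC and 0.80 in ES. In RS its mean (1.73 ± 0.387 FPKM) did not differ beyond the spread from Rps4x (1.74 ± 0.407) or Rpl39 (1.83 ± 0.844). It had 9 to 44 counts per library. All of its coding windows occur in other annotated transcripts, Rps16-ps2 among them, and the part of read assignment in its level was not tested.

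Rpl10l was far above Rpl10 at each stage. It stood at 246, 200 and 146 FPKM in the 3 PAC libraries, 187, 202 and 182 in RS, and 63.1, 75.7 and 67.5 in ES. Rpl10 stood at 14.5, 10.7 and 9.90 FPKM in PAC, 6.43, 6.59 and 3.94 in RS, and 11.4, 14.2 and 12.4 in ES. Thus Rpl10l was lowest where its somatic form was about as high as in PAC. The ratio of Rpl10l to Rpl10 on the FPKM scale was 16.8 ± 2.0 (SD, n = 3) in PAC, 35.2 ± 9.41 in RS and 5.43 ± 0.121 in ES, and no library of one stage overlapped another stage. On counts the log2 ratio rose by 1.03 from PAC to RS and fell by 2.66 from RS to ES (two-sided exact permutation p = 0.1 for each, the smallest that 3 against 3 can give; Benjamini-Hochberg adjusted p = 0.124 over 21 comparisons of 7 pairs). None of the 21 passed 0.05, which this design cannot reach. In the fit across all features, Rpl10l did not pass between RS and PAC (log2 fold change -0.12, SE 0.18, adjusted p = 0.564) and fell in ES against RS by 1.14 (SE 0.18, edgeR adjusted p = 0.00036).

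Rpl39l was the paralog with the highest level per length. Its FPKM was 529, 438 and 352 in PAC, 456, 548 and 545 in RS, and 295, 349 and 228 in ES. Rpl39 stood at 3.38, 4.0 and 3.90 FPKM in PAC, 1.45, 2.80 and 1.25 in RS, and 9.01, 10.1 and 6.44 in ES. No stages of Rpl39 overlapped, with ES highest and RS lowest. Their ratio was 119 ± 34.1 (SD, n = 3) in PAC, 316 ± 121 in RS and 34.2 ± 1.34 in ES, again without overlap. On counts the log2 ratio rose by 1.35 from PAC to RS and fell by 3.10 from RS to ES (exact permutation p = 0.1 each, adjusted p = 0.124). Rpl39l itself passed in no comparison (adjusted p = 0.459, 0.0686 and 0.191 for RS against PAC, ES against RS and ES against PAC by edgeR's quasi-likelihood test), so the change in the ratio came with called changes of Rpl39 alone. Its RS to PAC ratio rests on few counts, 17 to 41 per RS library for Rpl39.

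Rpl36al, the autosomal paralog of X-linked Rpl36a, showed the same order. Its ratio to Rpl36a on the FPKM scale was 5.45 ± 0.404 (SD, n = 3) in PAC, 16.9 ± 6.77 in RS and 2.58 ± 0.279 in ES, and the stages did not overlap. Rpl36al was 69.8, 61.8 and 54.1 FPKM in PAC, 50.1, 53.4 and 49.6 in RS, and 28.6, 32.4 and 29.6 in ES, and the fall from PAC to ES passed the test (log2 fold change -0.76, SE 0.15, adjusted p = 0.000776). Its smaller fall from RS to ES (-0.42, SE 0.15, adjusted p = 0.0337) was lost without any one of the 3 RS libraries or of ES replicates 2 and 3, and under DESeq2.

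Rpl22l1 and Rpl22 are both autosomal, and Rpl22l1 is known as a paralog that can stand in for Rpl22. The ratio of their FPKM was 3.04, 2.66 and 3.27 in PAC, 4.51, 6.78 and 8.11 in RS, and 1.39, 3.13 and 1.53 in ES. RS libraries were above all others, whereas ES replicate 2 lay within the PAC range. Rpl22l1 fell from RS to ES (64.2 ± 15.0 to 33.5 ± 13.4 CPM, SD, n = 3; log2 fold change -0.94, SE 0.28, adjusted p = 0.0187), while Rpl22 rose (42.7 ± 2.42 to 72.9 ± 15.2 CPM; 0.77, SE 0.19, adjusted p = 0.00657). The fall of Rpl22l1 was lost without RS replicate 2 or 3 or ES replicate 1 or 3. The rise of Rpl22 was lost with total counts as the scale and on log2 FPKM.

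The remaining pairs moved otherwise. Rpl7l1, a Rpl7 relative that takes part in ribosome assembly, was a small fraction of Rpl7 at each stage, with FPKM ratios of 0.0428 ± 0.000744 (SD, n = 3) in PAC, 0.0143 ± 0.000899 in RS and 0.0268 ± 0.0048 in ES. It fell from 49.2 ± 9.93 to 11.5 ± 0.814 CPM from PAC to RS (log2 fold change -2.10, SE 0.19, adjusted p = 3.07e-06). Rps27l, a paralog induced by p53 in somatic cells, had 0.181 ± 0.0205 of the FPKM of Rps27 in PAC, 0.118 ± 0.00797 in RS and 0.105 ± 0.0188 in ES, and fell from PAC to ES (-0.90, SE 0.20, adjusted p = 0.00202). Rps27rt, with 0 to 45 counts per library, has a coding sequence identical to that of Rps27 over all 255 bases. Reads within it cannot be told apart from Rps27 reads, and the rest of the transcript was not compared. Rpl3l, the striated muscle form of Rpl3, was too low to be tested, at 0.027 to 0.115 FPKM in any library, as were the retrocopies Rps23rg1 and Rpl34-ps1. Rps4l had no protein-coding row and was not analysed here.

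**Figure D1:**
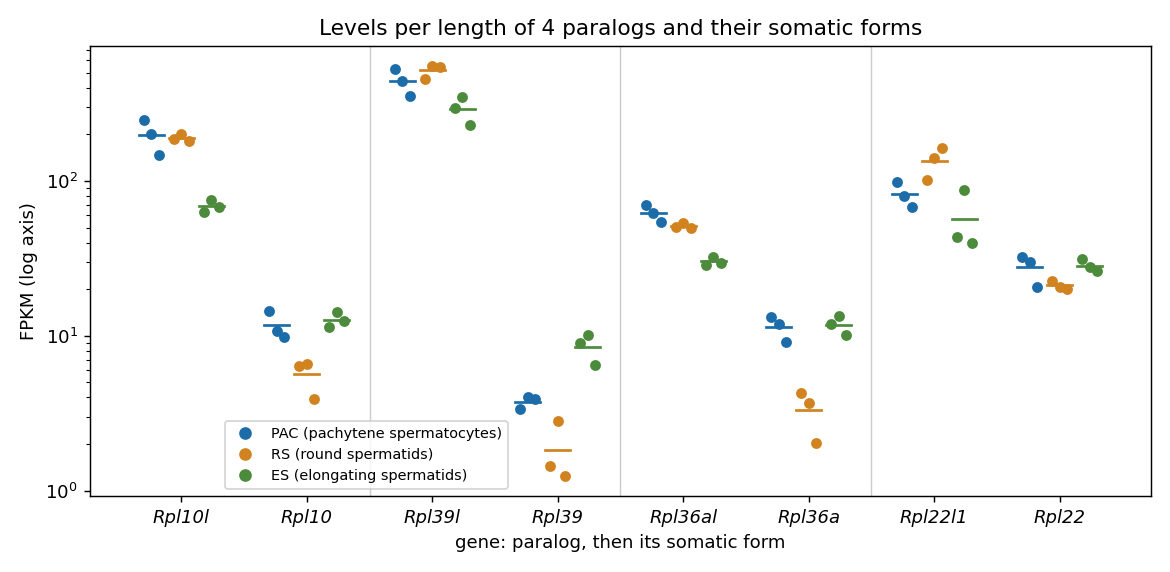
FPKM (log axis) of 4 paralogs and their somatic forms in each library, with 3 points per cell type and a bar at their mean. Rpl10l and Rpl39l lie above 60 FPKM in all 9 libraries, and Rpl10 and Rpl39 lie below 15.

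The 4 X-linked members, Rpl10, Rpl36a, Rpl39 and Rps4x, were lowest in RS. Rpl10 stood at 11.3, 7.93 and 7.57 CPM in PAC, 4.70, 4.89 and 2.89 in RS, and 11.9, 12.4 and 10.7 in ES. Rps4x, which encodes a small subunit protein, stood at 4.32, 3.44 and 2.88 CPM in PAC, 1.87, 1.61 and 1.11 in RS, and 10.3, 10.3 and 8.71 in ES. Rpl36a, a large subunit protein gene, stood at 6.34, 5.41 and 4.29 CPM in PAC, 1.90, 1.67 and 0.905 in RS, and 7.62, 7.06 and 5.39 in ES. For each of these genes every RS library was below every PAC and ES library.

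All 4 fell from PAC to RS, with log2 fold changes of -1.84 (Rpl36a), -1.21 (Rps4x), -1.10 (Rpl10) and -1.08 (Rpl39), and adjusted p from 0.00016 to 0.0151. The fall of Rpl39 was lost without RS replicate 1 or 3 and under upper-quartile factors, TMM from protein-coding genes and scaling to the ribosomal protein genes themselves. All 4 rose from RS to ES, with log2 fold changes of 2.67 (Rps4x, SE 0.25), 2.55 (Rpl39, SE 0.35), 2.16 (Rpl36a, SE 0.29) and 1.49 (Rpl10, SE 0.24), and kept the call in each of the 21 alternatives. Against PAC, ES was higher for Rpl39 (1.47, SE 0.33, adjusted p = 0.00202) and Rps4x (1.46, SE 0.24, adjusted p = 0.000207), and the 2 others did not pass. Over all 661 X-linked coding genes tested, 19.8% fell and 56.6% rose from PAC to RS (median log2 fold change 1.13), and 36.5% rose and 30.1% fell from RS to ES.

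Markers of Sertoli and Leydig cells moved in the same direction, and those of the other somatic cells did not at both steps. Of 12 tested Sertoli cell markers, 11 were lower in RS than in PAC and 12 were higher in ES than in RS. Their summed level was 61.0 to 147 CPM in PAC, 53.4 to 59.0 in RS and 421 to 503 in ES, with Amh and Fshr at 0 in all RS libraries. Amhr2 made up most of the RS sum, at 47.7 CPM. Of 10 Leydig cell markers, 10 fell and then 10 rose, with sums of 110 to 146, 2.48 to 2.65 and 29.8 to 36.9 CPM and Lhcgr at 0 in RS. Of 12 tested macrophage and blood markers, 7 rose and 1 fell from PAC to RS and 9 rose from RS to ES, with sums of 7.28 to 12.6, 20.4 to 24.2 and 193 to 292 CPM. Of 7 tested peritubular and vascular markers, 4 rose and 1 fell from PAC to RS, and 2 rose and 1 fell from RS to ES. Their sums were 6.47 to 8.50, 15.5 to 25.1 and 22.1 to 25.8 CPM, with Col1a1 at 0 in PAC. Of 10 markers of spermatogonia, which are germ cells, 5 fell and 2 rose from PAC to RS (median -0.87), and 6 rose and 1 fell from RS to ES (median 1.65). Their sums were 94.4 to 122, 37.4 to 40.3 and 46.4 to 59.0 CPM. More of them thus moved in the direction of the X-linked members than against it. The X-linked members were themselves at 0.496 to 12.4 CPM, and the part of somatic cells or spermatogonia in their levels was not tested.

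**Figure D2:**
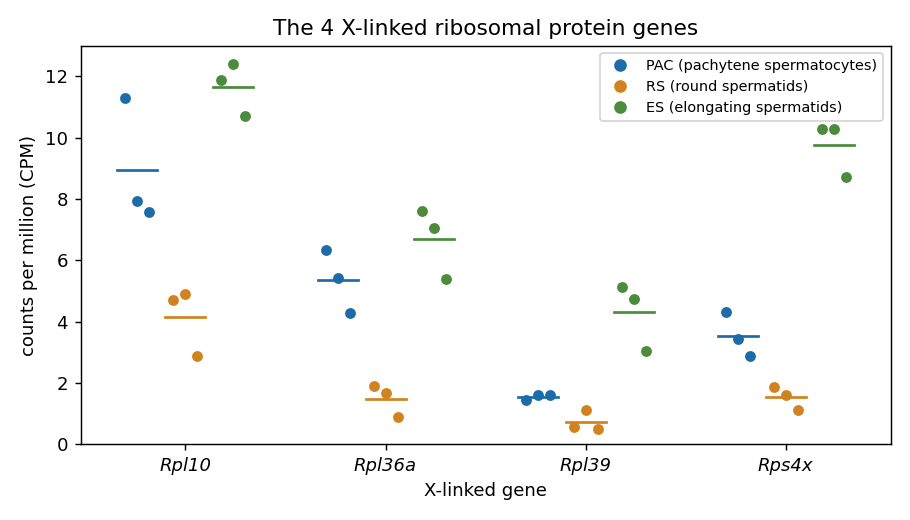
CPM of the 4 X-linked ribosomal protein genes in each library, with 3 points per cell type and a bar at their mean. All RS points lie below all PAC and ES points of the same gene.

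From PAC to RS, 34 of the 88 tested members fell and 1, Rps20, rose by edgeR's quasi-likelihood test at an adjusted p below 0.05. The members that fell made up 38.6%, beside 34.2% of all 26030 features tested and 46.9% of protein-coding genes. The riser made up 1.14%, beside 38.2% of all features and 26.3% of protein-coding genes. The median log2 fold change of the members was -0.30, beside 0.11 for all features and -0.46 for protein-coding genes. Of the canonical genes, 20 of 46 in the large subunit and 10 of 31 in the small subunit fell. These counts depend on the scale: with TMM from protein-coding genes 15 fell and 10 rose, and with upper-quartile factors 16 fell and 6 rose. Of all 26030 features, 6774 fell and 11861 rose with TMM from protein-coding genes, and 7172 fell and 11492 rose with upper-quartile factors. With TMM 8907 fell and 9956 rose. Without PAC replicate 1, or without RS replicate 3, 22 members fell. Of all features, 8438 of 26819 fell without PAC replicate 1 and 8129 of 26786 without RS replicate 3. The members' median minus that of coding genes was 0.16 with TMM, with TMM from protein-coding genes, with upper-quartile factors and with total counts alone, and ran from -0.05 to 0.30 over all alternatives.

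A few genes fell much further than the rest. Rpl10a, a large subunit protein at the L1 stalk, went from 18.6, 21.8 and 16.6 CPM in PAC to 1.72, 2.35 and 1.40 in RS and 4.43, 11 and 6.25 in ES. Its log2 fold change from PAC to RS was -3.38 (SE 0.33, adjusted p = 5.45e-06), and no libraries overlapped between stages. Rpl14 went from 293, 225 and 164 CPM to 28.8, 34.2 and 30.1 and then to 101, 109 and 84.5. It fell to RS by 2.87 on the log2 scale (SE 0.21, adjusted p = 6.88e-07) and rose to ES by 1.66 (SE 0.20, adjusted p = 5.62e-05), and each stage was apart from the others. Lower in RS and higher again in ES were also Rps3, Rpl7l1, Rps19bp1, Rpl19, Rpl29 and Rps15. Rpl10a, Rpl14, Rps3, Rpl7l1 and Rps19bp1 were also lower in ES than in PAC, and Rpl19, Rpl29 and Rps15 did not pass there. Most Sertoli and Leydig cell markers also fell to RS and rose to ES, and their part in these levels was not tested. In ES against PAC all 12 tested Sertoli markers were higher, whereas 9 of 10 Leydig markers were lower and 1 was higher.

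Rps27a, which encodes a fusion of ubiquitin with a small subunit protein, was 344, 252 and 203 CPM in PAC, 54.7, 63.5 and 65.9 in RS, and 84.8, 95.3 and 72.3 in ES. Its fall from PAC to RS was -2.12 on the log2 scale (SE 0.20, adjusted p = 3.56e-06), and RS and ES did not differ at the threshold (0.46, SE 0.19, adjusted p = 0.0687). Rpl4, a large protein of the exit tunnel, was 232, 207 and 198 CPM in PAC, 83.9, 76.9 and 75.5 in RS, and 79.2, 89.9 and 83.9 in ES, a fall of -1.43 (SE 0.13, adjusted p = 2.36e-06) with RS and ES overlapping. Rpl31-ps12, a retrocopy below 2 CPM in every library, fell by 2.82 (SE 0.72, adjusted p = 0.00417). Rps19bp1, which is no ribosomal protein, fell from 15.5 ± 1.46 to 1.74 ± 0.243 CPM (SD, n = 3; -3.15, SE 0.20, adjusted p = 2.43e-07). These 6 falls held under each alternative that tested the gene. Rps20 rose from 231, 198 and 160 CPM to 253, 293 and 288 (0.50, SE 0.20, adjusted p = 0.0373), a call lost in 7 of 21 alternatives, among them DESeq2 and the fits that left out ES replicate 2, either of RS replicates 2 and 3, or either of PAC replicates 2 and 3.

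From RS to ES, 18 members rose and 4 fell. The share that rose was 20.5%, beside 24.5% of all features and 31.8% of protein-coding genes, and the share that fell was 4.55%, beside 22.1% and 21.7%. The members' median was 0.10, beside 0.05 for all features and 0.18 for coding genes. With total counts alone 10 rose and 27 fell, with TMM from protein-coding genes 15 rose and 9 fell, and without ES replicate 1 15 rose and 11 fell. Of all 26030 features, 4292 rose and 8191 fell with total counts, and 5404 rose and 6788 fell with TMM from protein-coding genes. With TMM 6374 rose and 5752 fell, and without ES replicate 1 6052 of 27119 rose and 5648 fell. The number of members that fell also varied with 6 further single libraries: 8 without PAC replicate 3, 2 without RS replicate 1, RS replicate 3 or ES replicate 2, and 1 without RS replicate 2 or ES replicate 3. Of all features, 6152 of 27030 fell without PAC replicate 3. Without RS replicates 1, 2 and 3 in turn, 4709 of 26709, 4647 of 26800 and 4752 of 26786 fell. Without ES replicates 2 and 3 in turn, 5056 of 27126 and 5487 of 27181 fell. The risers included the 4 X-linked genes. The 4 that fell were Rpl10l, Rpl22l1, Rpl36al and Rps26. Rps26, a small subunit protein at the mRNA exit, was 47.2, 46.2 and 36.9 CPM in RS and 33.6, 19.2 and 19.6 in ES (-0.85, SE 0.28, adjusted p = 0.0262), and its call was lost without RS replicate 1 or 2 or ES replicate 2 or 3.

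Among the canonical genes Rpl41 had the largest rise from PAC to ES. It was 674, 519 and 413 CPM in PAC, 631, 741 and 787 in RS, and 2170, 2190 and 1250 in ES, so that ES stood clear of the overlapping PAC and RS. Its log2 fold change was 1.38 from RS to ES (SE 0.23, adjusted p = 0.000662) and 1.80 from PAC to ES (SE 0.24, adjusted p = 5.13e-05), and both calls held in each of the 21 alternatives. Of the summed FPKM of canonical genes, Rpl41 held 4.52% ± 0.116 (SD, n = 3) in PAC, 6.96% ± 0.615 in RS and 15.4% ± 2.53 in ES. Its longest annotated coding sequence, of 141 bases, shared 4.35% of its windows with another gene, and the rest of the transcript was not searched.

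**Figure D3:**
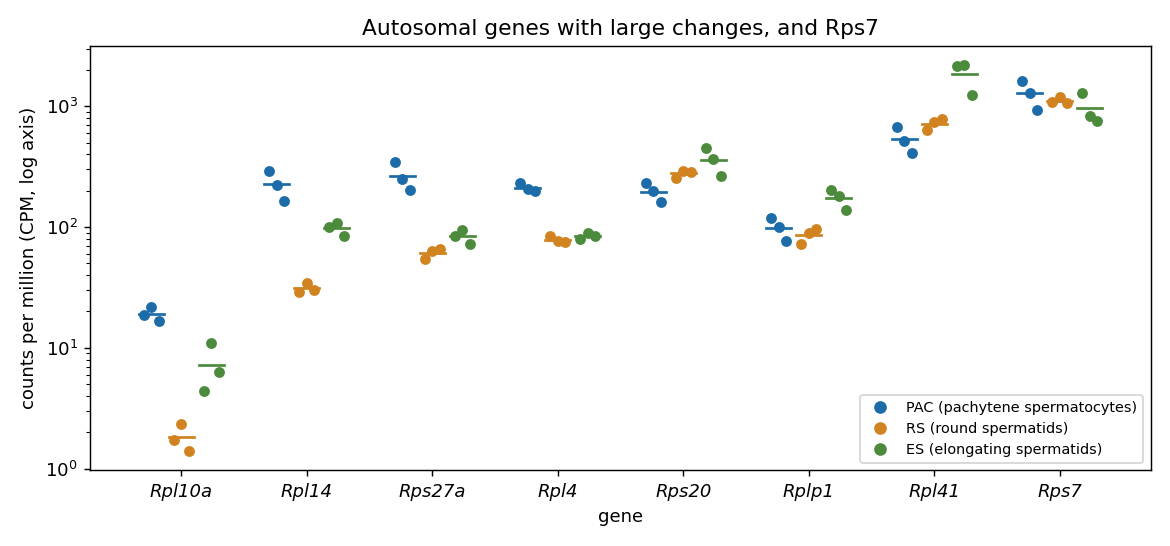
CPM (log axis) of 8 autosomal genes in each library, with 3 points per cell type and a bar at their mean. Rpl10a, Rpl14, Rps27a and Rpl4 are lower in every RS library than in any PAC library, Rpl41 is highest in ES, and the stages of Rps7 overlap.

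Between PAC and ES, 31 members were lower in ES and 9 higher. The lower ones made up 35.2%, beside 33.7% of all features and 42.6% of protein-coding genes, and the higher ones 10.2%, beside 30.6% and 25.2%. The median was -0.31, beside -0.09 for all features and -0.38 for coding genes. With upper-quartile factors 17 were lower and 16 higher, with TMM from protein-coding genes 18 and 15, and with total counts alone 50 were lower. Of all 26030 features, 6931 were lower and 9528 higher with upper-quartile factors, and 7320 and 9224 with TMM from protein-coding genes. With total counts alone 10257 were lower, and with TMM 8778 were lower and 7976 higher. Without ES replicate 1, 5 members were higher, beside 7654 of 27119 features. Rps19bp1 (-1.70), Rps27a (-1.66), Rpl10a (-1.39), Rpl4 (-1.33) and Rpl10l (-1.25) fell furthest. Rpl41, Rpl39, Rps4x and Rps20 rose furthest among the canonical genes, Rps20 by 0.88 (SE 0.20, adjusted p = 0.00217). The retrocopy Rps27rt had the largest value (3.36, SE 0.96, adjusted p = 0.00952), from 0 to 5 counts in PAC and 10 to 45 in ES. Those within its coding sequence cannot be told apart from Rps27 reads, and how many these were was not examined. Its call was lost without ES replicate 1 (2.47, adjusted p = 0.0553).

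Over the 3 comparisons, 35 members passed in none, among them Rpl39l, Rplp0, Rplp2, Rps7 and Rps24. Another 21 were higher in PAC than in both other stages, including Rpl3, Rpl4, Rpl7, Rps3 and Rps27a. Lower in RS than in both others were 12, among them Rpl10a, Rpl14 and the 4 X-linked genes. Higher in ES than in both others were 7, among them Rpl39, Rpl41, Rplp1 and Rps4x, and 3 were lower there (Rpl10l, Rpl36al and Rps26). The comparisons share their libraries and are not independent. The share of all features with each of these patterns was not counted, so the numbers describe the members alone.

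**Figure D4:**
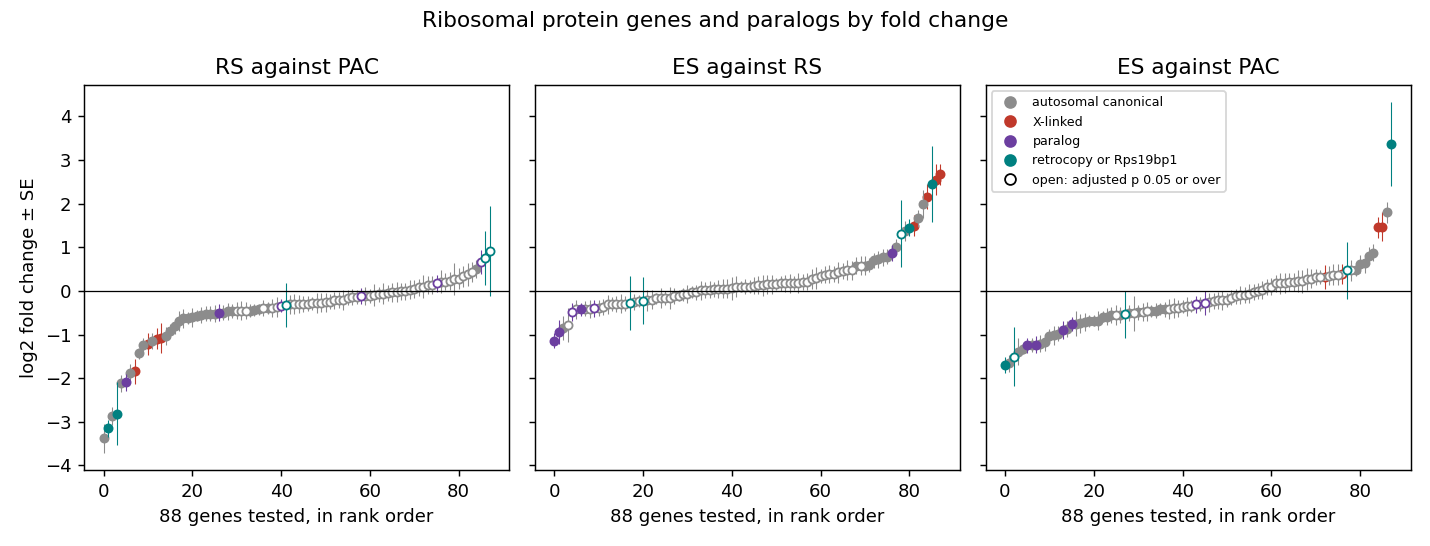
Log2 fold change ± SE of the 88 tested genes, in rank order within each comparison; filled points passed an adjusted p below 0.05. The 4 X-linked genes (red) passed as falls in RS against PAC and as rises in ES against RS, where Rps4x and Rpl39 have the highest values, and Rpl10l (lowest purple point) opens the rank order of ES against RS.

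Of the stalk protein genes, whose products recruit translation factors, Rplp1 passed the test and the others did not. Rplp1 was 119, 101 and 76.4 CPM in PAC, 72.4, 89.0 and 96.1 in RS, and 201, 180 and 139 in ES, and rose from RS to ES by 1.01 on the log2 scale (SE 0.19, adjusted p = 0.00134). Rplp0 (1161 ± 276, 886 ± 34.0 and 994 ± 232 CPM, SD, n = 3) and Rplp2 (27.1 ± 5.45, 26.2 ± 0.816 and 26.6 ± 5.42 CPM) passed in no comparison. Rpsa, the small subunit protein also described as a laminin receptor, fell from PAC to RS (294 ± 55.1 to 207 ± 7.0 CPM; -0.50, SE 0.17, adjusted p = 0.0213), a call lost in 9 of 21 alternatives, among them the fits without PAC replicate 1 or 2 and without any one RS library.

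The fold changes of canonical genes varied with their coding length. Lengths ran from 141 bases (Rpl41) to 1260 (Rpl4), by the longest annotated coding sequence. Across the 77 genes, which share libraries, the Spearman rho of coding length with log2 fold change was -0.574 for RS against PAC, 0.0927 for ES against RS and -0.417 for ES against PAC, and -0.518, 0.105 and -0.313 over the 68 genes longer than 300 bases. Over 14191 coding genes these were -0.0605, 0.0688 and -0.00668. From PAC to RS 17 of the 23 genes over 600 bases fell (median -0.52), 12 of the 45 over 300 and up to 600 fell (median -0.25), and 1 of the 9 at or under 300, Rpl39, fell (median 0.21). Of protein-coding genes of any length 46.9% fell, with a median of -0.46, and of all features 34.2% fell. By median the genes over 600 bases were near protein-coding genes, and the 9 shortest lay furthest from them. By the share that fell, the genes over 600 bases stood above protein-coding genes and all features, and both shorter groups stood below. Shares of coding genes of the same lengths were not counted.

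**Figure D5:**
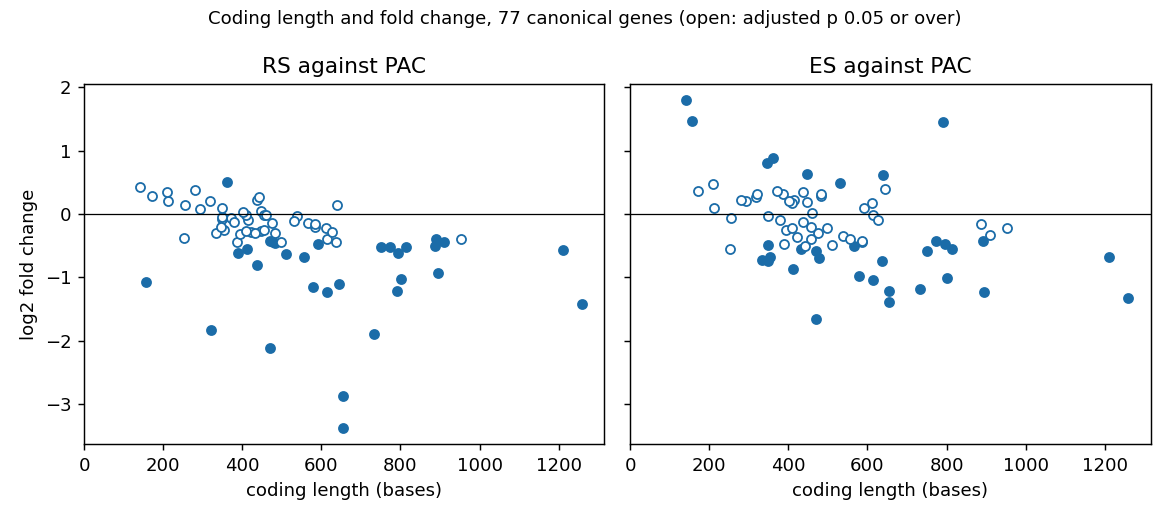
Log2 fold change of the 77 canonical genes against coding length in bases, for RS against PAC and ES against PAC; filled points passed an adjusted p below 0.05. Rpl10a and Rpl14 are the lowest points of RS against PAC, and the shortest gene, Rpl41, is the highest of ES against PAC.

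Many ribosomal protein mRNAs open with a run of pyrimidines through which their translation is regulated, so the start sites of a few members are shown. The windows are from RefSeq (GRCm38.p6), 10 bases before and 20 from the annotated start, and were searched for a C within 5 bases of the start that is followed by at least 4 more C or T. Capitals mark the whole run of pyrimidines, from its first C, that holds such a match. They lie at chr9:120571507-120571536 (Rpl14, plus strand), chr3:28805498-28805527 (Rpl22l1, plus), chrX:37085203-37085232 (Rpl39, minus), chr16:10170218-10170247 (Rpl39l, plus) and chr12:66284382-66284411 (Rpl10l, minus).
Rpl14: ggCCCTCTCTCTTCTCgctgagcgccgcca
Rpl22l1: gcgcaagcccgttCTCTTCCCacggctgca
Rpl39: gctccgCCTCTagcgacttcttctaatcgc
Rpl39l: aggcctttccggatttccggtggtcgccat
Rpl10l: cctccattttgcggctggcggtgggcacgc
The windows of Rpl10, Rpl10a, Rpl22, Rpl36a, Rpl36al, Rpl41, Rplp0, Rps4x and Rps7 held no such match and are not printed. Read on the coding strand only, such a match was present in 43.3% of 67 windows of 57 canonical genes, beside 18.3% of all 32851 RefSeq windows. Among the 4 windows of X-linked canonical genes, 1 held it (Rpl39). In the 300-base windows, both strands searched, CCGGAAG was found in 37.3% of canonical windows and 8.86% of all, TGACGTCA in 7.46% and 1.79%, and TATAAA in 8.96% and 13.6%. Of the paralogs' 9 windows, 2 held the pyrimidine run (Rpl22l1 and Rps27l) and 2 held CCGGAAG (Rpl39l and Rps27l). Windows were present for 70 of the 91 members. A match is a match of letters at an annotated start and not a measured site.

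Ribosomal proteins under other symbols moved in both directions. Rack1, the small subunit scaffold protein, fell from 152 ± 40.2 to 25.5 ± 1.47 CPM (SD, n = 3) from PAC to RS and was 54.8 ± 5.14 in ES (RS against PAC -2.58, adjusted p = 8.07e-07). Fau rose from 198 ± 25.4 CPM in PAC to 316 ± 53.5 in ES (0.67, adjusted p = 0.00201).

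Most genes of ribosome assembly factors fell after meiosis. Of 68 assembly genes 52 fell and 2 rose from PAC to RS (median -1.24), so that 76.5% fell beside 46.9% of protein-coding genes and 34.2% of all features. In ES against PAC 46 were lower and 5 higher (median -1.03), or 67.6% lower beside 42.6% and 33.7%. From RS to ES 21 rose and 17 fell (median 0.12), and the 30.9% that rose were near the 31.8% of protein-coding genes. Nop16, a nucleolar protein, fell from 14.8 ± 2.84 to 1.83 ± 0.183 CPM (SD, n = 3; -3.01, adjusted p = 5.07e-07), and Gnl2, a nucleolar GTPase, was 65.0 ± 6.05 CPM in PAC and 17.8 ± 5.18 in ES (-1.87, adjusted p = 1.57e-05).

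Of 40 tested initiation factors 18 fell and 5 rose from PAC to RS (median -0.35), and 14 rose and 7 fell from RS to ES (median 0.24). The shares that fell to RS (45.0%) and rose to ES (35.0%) were near those of protein-coding genes (46.9% and 31.8%), whereas 12.5% rose to RS beside 26.3% and 17.5% fell to ES beside 21.7%. Eif1ax, an X-linked factor in start codon selection, rose from 10 ± 1.19 CPM in PAC to 50.5 ± 1.16 in RS and 104 ± 25.9 in ES (ES against PAC 3.37, adjusted p = 1.53e-07). Of the eIF2 gamma genes, Eif2s3y on the Y chromosome was highest in RS (27.0 ± 3.32, 84.4 ± 4.38 and 30.9 ± 6.99 CPM), whereas its X-linked counterpart Eif2s3x rose from 1.03 ± 0.272 in RS to 6.65 ± 0.287 in ES (2.68, adjusted p = 4.57e-05). Of 13 tested elongation factors 5 rose and 5 fell from PAC to RS (median 0.03), or 38.5% each beside 26.3% and 46.9% of protein-coding genes.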

How the data were processed

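Estimated counts per feature in 9 libraries (3 each of PAC, RS and ES) and FPKM values were deposited by the authors; HISAT2, StringTie and GRCm38.p6 are named in the submitters' processing notes, with no versions or order. The count table is called raw per the labels, but 18.85% of its values are not whole, so they were rounded. The total ran from 22910156 to 33801617 counts per library; errors given for low genes cover the spread between libraries only.

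Features were kept by filterByExpr (minimum count 10; 26030 kept, 24463 removed), scaled by TMM and compared in one fit of all 9 libraries with edgeR 4.0.16's quasi-likelihood test (R 4.3.3, two-sided, robust), with Benjamini-Hochberg adjustment over all features and calls below 0.05. CPM are after TMM. Paralog ratios used counts plus 0.5 per library and an exact permutation test (scipy 1.17.1). DESeq2 1.42.0 and limma 3.58.1 on log2(FPKM + 1) and log2(FPKM + 0.1) served as alternatives. Coding lengths and sequences came from GENCODE M21. The fit was tested on simulated data. No pair of replicates was alike within sampling noise.

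The genes named are the paralogs with their somatic forms, X-linked members, stalk genes and Rpsa, the 3 highest by CPM per cell type, the 5 largest called changes in each direction per comparison, members too low to test, and the leading related genes. Rps16, members listed by their pattern over the stages and the start-site examples were named after their values were seen. Members, lists, rules and tests were chosen with earlier results of these data known. Some genes that this rule names are not reported here.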

Additional observations from a re-analysis of the deposited data

How the results depend on the processing

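Counts of called members moved with the scale, so they are not firm, while 35 of the 50 calls of single named genes held in every alternative that could be fitted. The other 15 were lost in at least 1, and none of the 50 changed sign. Another 89 values, in 21 gene comparisons, changed sign while passing the threshold neither with TMM nor in the alternative, and the largest of these was 0.34 on the log2 scale with TMM. Rps27rt had no value with a minimum count of 50.

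Members higher in RS than in PAC numbered 1 with TMM, 0 with DESeq2 size factors and 0 with DESeq2's Wald test, 6 with upper-quartile factors, 10 with TMM from protein-coding genes, 10 when scaled to the summed ribosomal protein counts (chosen after seeing the data), 2 with a minimum count of 50, 3 in a fit of the 2 cell types alone and 2 on log2 FPKM with either pseudocount. Members lower there numbered 34, and 16, 15 and 16 with upper-quartile factors, coding TMM and ribosomal scaling. From RS to ES, 18 rose, against 10 with total counts and 11 and 10 on log2(FPKM + 1) and log2(FPKM + 0.1). The 4 that fell became 2 with DESeq2 size factors, 27 with total counts, 9 with coding TMM, 16 with ribosomal scaling and 28 on log2 FPKM with either pseudocount. From PAC to ES, the 9 that rose became 16 with upper-quartile factors and 15 with coding TMM, and the 31 that fell became 17, 18, 50 with total counts, 17 in a fit of the 2 cell types alone and 50 on log2 FPKM. Calls over all 26030 features moved as well. From RS to ES 5752 of them fell with TMM, 4765 with DESeq2 size factors, 8191 with total counts and 6788 with coding TMM. With ribosomal scaling 5217 fell, and on log2(FPKM + 1) and log2(FPKM + 0.1) 8917 and 8690. From PAC to ES 8778 fell with TMM, and 10251 and 10266 on log2(FPKM + 1) and log2(FPKM + 0.1).

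Leaving out 1 library at a time gave 0 to 3 members higher and 22 to 43 lower in RS than in PAC, 14 to 20 higher and 1 to 11 lower in ES than in RS, and 5 to 12 higher and 21 to 41 lower in ES than in PAC. Of the 26709 to 27181 features tested in these fits, 9021 to 10374 were higher and 7947 to 9396 lower in RS than in PAC. In ES against RS 4976 to 6625 were higher and 4647 to 6173 lower, and in ES against PAC 7624 to 7962 and 8238 to 8904. The log2 ratio of Rps27rt to Rps27 from PAC to RS, 0.98, turned to -0.27 on FPKM, -0.43 with no prior count, and -0.41 to 1.73 with 1 library left out.

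Replicate numbers did not meet the limit for pairing: 3 of 9 same-numbered pairs had a correlation of deviations above 0.1 (range -0.0397 to 0.273), beside 0 of 18 differently numbered pairs (-0.254 to 0.0941). Not every library correlated best with its own number in the other cell types (8 of 18 cases did), a description of the data and not of the design. With a replicate block the members that fell from RS to ES numbered 8, and no other count of members moved by over 1.5 times.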
